A study of Homo sapiens with 6 samples.

Results

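ABC transporters are membrane proteins that use ATP to move lipids, sterols, drugs, bile acids, metal cofactors or fatty acids across a membrane. The genes described here are those with a probe set of 1 gene symbol beginning with ABCA, ABCB, ABCC, ABCD or ABCG and a digit, which gave 39 genes of 18132 with such a probe set, on 111 probe sets. Each gene was read from its probe set with the highest mean over the 6 arrays, and its other probe sets served as a check. By subfamily they were 12 ABCA, 7 ABCB, 12 ABCC, 3 ABCD and 5 ABCG genes, and 2 of the ABCC genes, ABCC6P1 and ABCC13, are pseudogenes in RefSeq. The expression data came from TE-1, a human cell line of oesophageal squamous cell carcinoma, on an Affymetrix array. There were 3 arrays of TE-1 cells with a stable EIF3C knockdown, all from 1 clone, and 3 arrays of the parental cells as control. The labels name no treatment beyond the knockdown and no cells with a control construct, and a clone can differ from its parental line in ways unrelated to the knockdown. They call the samples biological replicates without saying whether cultures were separate, so that p-values measure only the spread between these arrays, which may be technical.

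The subfamilies differ in what they carry. ABCA proteins move lipids, ABCB proteins include the drug pump P-glycoprotein and transporters of mitochondria and lysosomes, and ABCC proteins export conjugated anions or, as the sulfonylurea receptors, regulate potassium channels. ABCD proteins bring very long or branched fatty acids into peroxisomes or act in lysosomes, and ABCG proteins export sterols, urate and drugs. In tumour cells the family is known for drug efflux, mainly through ABCB1, ABCC1 and ABCG2.

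The knockdown itself was plain in the arrays. On the brightest of 5 probe sets shared by EIF3C and its near-identical copy EIF3CL, the log2 signal was 8.42, 8.41 and 8.49 in EIF3C knockdown, against 10.69, 10.60 and 10.56 in control, which left 22.1% of the control signal. Array medians lay between 6.09 and 6.11, and correlations across probe sets were at least 0.9977 within groups and at most 0.9846 between groups. All 14 squamous and epithelial marker genes with a usable probe set had, in at least 1 group, a mean at or above 4.63, the level below which the dimmest 25% of genes were left out of the test, and KRT13 was below it in knockdown. Markers of other cell types reached that level for 4 of 10 fibroblast, 5 of 8 endothelial, 3 of 8 leukocyte and 2 of 7 hepatocyte genes. The defining leukocyte gene PTPRC, at 2.85 in EIF3C knockdown and 2.87 in control, and the fibroblast genes DCN, LUM, COL3A1 and PDGFRA lay below it in both groups, whereas CD68, at 5.88 in knockdown and 6.05 in control, and FBLN1, at 8.87 in knockdown and 9.21 in control, lay above. The fibroblast list had a lower summed linear signal in knockdown, 724 to 771 against 1205 to 1246 in control, with COL1A2 at 6.22 in knockdown and 8.74 in control. The endothelial sum was 479.8 to 492.5 in knockdown and 577 to 580.4 in control, with EGFL7 at 7.81 in knockdown and 8.35 in control and CDH5 at 6.31 in knockdown and 5.84 in control. The leukocyte sums overlapped, at 201 to 219 in knockdown and 209 to 251 in control. KRT5, at 6.09 in knockdown and 5.91 in control, and KRT14, at 5.67 in knockdown and 5.85 in control, lay near the array medians. KRT8 was at 13.28 in knockdown and 13.03 in control. At an adjusted p of 0.05 in limma, 4 of 13 tested squamous and epithelial genes were higher and 6 lower. Over all genes tested these shares were 32.4% and 34.1%. KRT15 had the largest fall of that list (log2 fold change -0.92) and KRT8 the largest rise (0.26). The part of these markers in the transporter values was not tested.

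In outline, ABCD3 and ABCC3 were the transporter genes with at least 2-fold more signal in EIF3C knockdown. ABCC1 and ABCA13 rose by less, and ABCA5 and ABCG2 had the largest falls among the tested transporter genes. Of the 39 genes, 26 were bright enough to be tested, and 15 of these passed an adjusted p of 0.05 (limma with Benjamini-Hochberg adjustment over all 13599 genes tested), 6 higher and 9 lower in knockdown. Over all genes tested 66.5% passed, 32.4% higher and 34.1% lower, so a call by itself did not set the family apart. The share of tested transporter genes called was 57.7%. Changes of at least 0.5 on the log2 scale were called for 6 of the 26, 4 higher and 2 lower, beside 21.8% of all genes tested (11.4% higher and 10.4% lower). At least 2-fold changes were called for 2 of the 26 and for 4.82% of all genes. The median log2 fold change was -0.05 over the 26 transporter genes and -0.03 over all genes tested, and the median size of the change was 0.23 in each case.

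**Figure D1:**
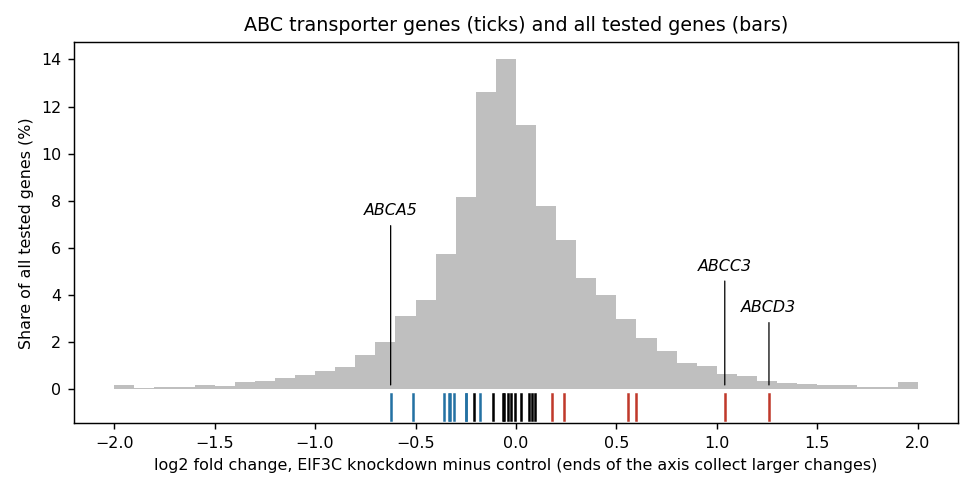
Distribution of log2 fold changes, EIF3C knockdown minus control, on the x axis, with the share of all 13599 tested genes in percent as bars. Ticks mark the 26 tested ABC transporter genes, red where called higher, blue where called lower and black where not called. ABCD3 at 1.26 and ABCC3 at 1.04 lie in the right tail, while most ticks lie near the centre.

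Promoter windows from RefSeq (GRCh38.p14, 250 bases before to 50 after the annotated start, printed 5′ to 3′ on the gene's strand) are shown for the genes called with a change of at least 0.5 that have a single start in that table. They are ABCD3 (chr1:94418139-94418438, plus strand) and ABCA13 (chr7:48171208-48171507, plus strand), which rose, and ABCA5 (chr17:69327084-69327383, minus strand), which fell. Capitals mark any of 5 motifs searched on both strands, namely the antioxidant response element core TGACNNNGC, the E-box CACGTG, the GC box GGGCGG, the CCAAT box CCAAT and the TATA box TATAAA.
ABCD3: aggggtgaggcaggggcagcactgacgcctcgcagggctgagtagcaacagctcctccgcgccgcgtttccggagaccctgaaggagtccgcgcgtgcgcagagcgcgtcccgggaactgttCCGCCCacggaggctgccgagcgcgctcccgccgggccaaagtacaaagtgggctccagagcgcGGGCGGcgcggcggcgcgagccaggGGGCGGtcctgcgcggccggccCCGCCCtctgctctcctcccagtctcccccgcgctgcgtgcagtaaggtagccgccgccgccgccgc
ABCA13: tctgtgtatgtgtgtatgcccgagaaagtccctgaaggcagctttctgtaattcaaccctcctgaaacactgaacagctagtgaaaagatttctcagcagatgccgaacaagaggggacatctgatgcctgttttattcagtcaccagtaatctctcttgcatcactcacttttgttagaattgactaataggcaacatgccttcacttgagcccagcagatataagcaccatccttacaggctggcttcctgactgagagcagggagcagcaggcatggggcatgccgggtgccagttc
ABCA5: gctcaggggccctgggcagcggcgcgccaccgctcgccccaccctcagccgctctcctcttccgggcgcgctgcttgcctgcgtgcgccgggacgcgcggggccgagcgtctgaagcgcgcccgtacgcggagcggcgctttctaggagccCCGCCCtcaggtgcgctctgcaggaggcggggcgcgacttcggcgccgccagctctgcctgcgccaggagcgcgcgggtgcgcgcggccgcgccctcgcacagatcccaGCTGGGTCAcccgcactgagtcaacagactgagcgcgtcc
Among the tested transporter genes ABCD3 had the largest rise and ABCA5 the largest fall. Both have GC-rich windows with GC boxes, 4 in ABCD3 and 1 in ABCA5. The ABCA13 window, with 48.3% G and C, holds none of the 5 motifs, and G and C make up 75% of the ABCD3 window and 76.3% of that of ABCA5, against a median of 58.7% over 35116 windows. The single antioxidant response element core lies in ABCA5. GC boxes stood in 8 of the 11 tested transporter genes with a single start and in 45% of all windows, and the antioxidant core in 3 of the 11 and in 13.3% of all windows. The E-box stood in 1 of the 11 and 7.26% of all windows, the CCAAT box in 2 and 34.6%, and the TATA box in 3 and 11.5%. A match of letters is a description and not a binding site.

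The peroxisomal and lysosomal subfamily, ABCD, held the largest change of all tested members. ABCD3 encodes the peroxisomal membrane protein PMP70, which imports long-chain and branched fatty acids and bile acid intermediates. Its log2 signal was 10.59, 10.58 and 10.48 in EIF3C knockdown, against 9.41, 9.26 and 9.20 in control. The groups were far apart, with every knockdown array more than 1 unit above the highest control array. The log2 fold change was 1.26 (SE 0.04, adjusted p = 2.21e-13), a 2.39-fold difference, and 1.22% of all tested genes rose at least as far. The other 4 probe sets of ABCD3 were called higher too, with log2 fold changes from 0.69 to 1.48.

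ABCD4, which works with the lysosomal protein LMBRD1 in the release of cobalamin into the cytosol, went the opposite way. Its log2 signal was 7.62, 7.62 and 7.59 in EIF3C knockdown, against 7.98, 7.87 and 7.90 in control, and the groups did not overlap. The fall was 0.31 on its brightest probe set (log2 fold change -0.31, SE 0.05, adjusted p = 2.16e-05). On the mean of its 3 probe sets the log2 fold change was -0.18, and the other 2 probe sets, at -0.11 and -0.13, were not called. ABCD2, a peroxisomal transporter of very long-chain fatty acids, was dim in both groups, at 2.87 in knockdown and 2.92 in control.

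In the ABCC subfamily, organic anion pumps and sulfonylurea receptors, 3 of 8 tested genes were called higher and 2 lower, beside 32.4% and 34.1% of all genes tested. ABCC3, the multidrug resistance-associated protein of the basolateral membrane that exports glucuronides and bile salts, had the second largest rise of the family. Its log2 signal was 8.76, 8.78 and 8.74 in EIF3C knockdown, against 7.74, 7.76 and 7.68 in control. The knockdown arrays lay close together and well above all control arrays. The log2 fold change of 1.04 (SE 0.04, adjusted p = 9.32e-13) was a 2.06-fold difference, and 2.32% of all tested genes rose at least as far. Its further probe set was called higher as well, by 0.80.

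ABCC1, which exports glutathione conjugates and several anticancer drugs, also rose. Its log2 signal was 9.18, 9.33 and 9.25 in EIF3C knockdown, against 8.74, 8.63 and 8.59 in control, without overlap. ABCC1 had a log2 fold change of 0.60 (SE 0.05, adjusted p = 3.97e-09), a 1.51-fold difference. Of its further probe sets, 1 was called higher at 0.64, and the dimmest, at 0.19, was not called. The cyclic nucleotide and prostaglandin exporter gene ABCC4 had log2 signals of 9.04, 9.03 and 9.00 in EIF3C knockdown, against 8.93, 8.83 and 8.59 in control. Its knockdown arrays were all higher than the control arrays, of which replicate 3 was the lowest. The log2 fold change was 0.24 (SE 0.06, adjusted p = 0.00232), and without that array it was 0.14 (adjusted p = 0.00336). All 3 further probe sets of ABCC4 were higher, by 0.22 to 0.41, and 2 of them were called.

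ABCC5, an exporter of cyclic nucleotides, did not give the same answer on all its probe sets. On the brightest, the log2 signal was 9.35, 9.25 and 9.28 in EIF3C knockdown, against 9.69, 9.66 and 9.61 in control, and the groups did not overlap. That probe set fell by 0.36 (SE 0.04, adjusted p = 9.72e-08). A further probe set was called lower, at -0.14, another was called higher, at 0.26, and the last, at -0.11, was not called. With the mean of the 4 probe sets the call was lost (log2 fold change -0.09, adjusted p = 0.0546). ABCC5 was the only called transporter gene with a further probe set called in the opposite direction.

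ABCC10, which exports lipophilic drugs such as taxanes, fell on its only probe set. The log2 signal was 7.15, 7.08 and 7.11 in EIF3C knockdown, against 7.54, 7.44 and 7.35 in control (log2 fold change -0.33, SE 0.06, adjusted p = 8.63e-05). ABCC2, the apical exporter of bilirubin glucuronide, had log2 signals of 5.34, 5.40 and 5.43 in EIF3C knockdown, against 5.26, 5.12 and 5.51 in control. The control arrays spanned the knockdown arrays, and ABCC2 was not called (log2 fold change 0.10, SE 0.10, adjusted p = 0.399). Without control replicate 3 it passed, at 0.20 (adjusted p = 0.0457). The sulfonylurea receptor gene ABCC8 (-0.04) and ABCC11, which secretes lipophilic compounds in apocrine glands (0.02), were not called. The other sulfonylurea receptor gene ABCC9, ABCC12 and the pseudogene ABCC13 were dim in both groups.

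**Figure D2:**
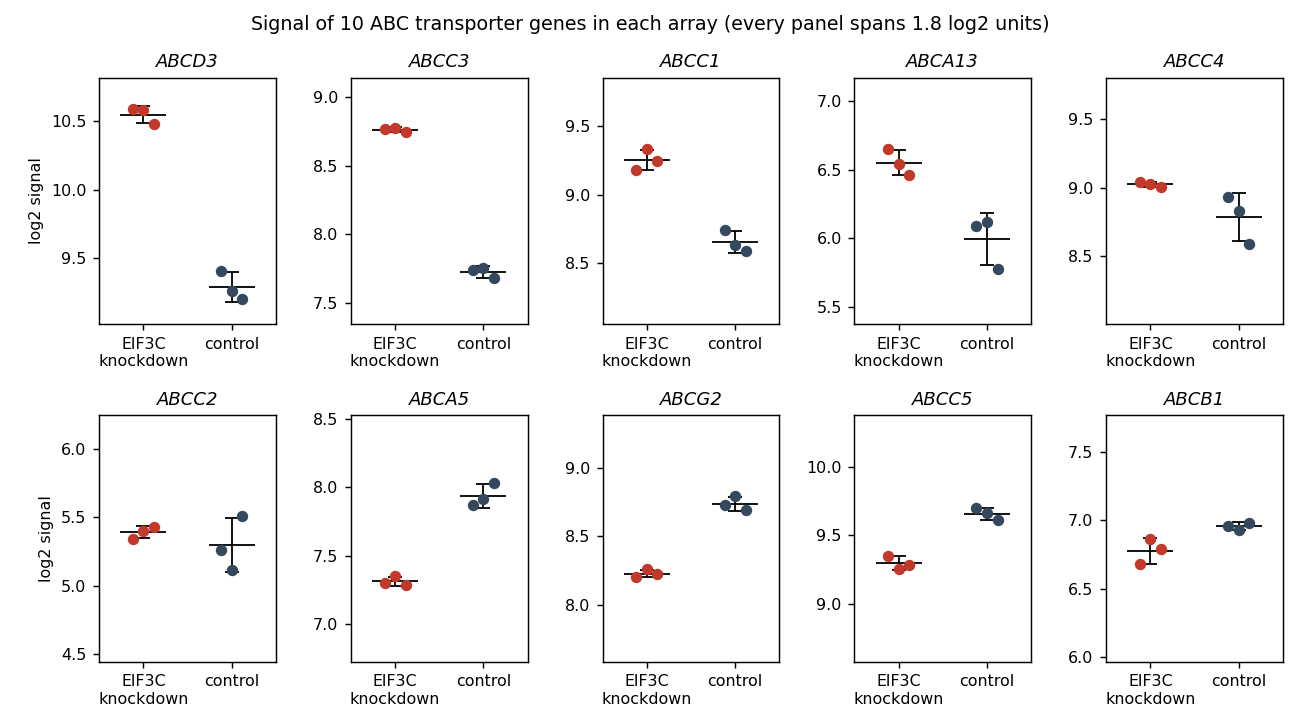
Log2 signal on the y axis for 10 ABC transporter genes, with EIF3C knockdown (red, left) and control (dark, right) in each panel. Points are the 3 arrays of a group, horizontal lines are means and bars are SDs. ABCD3, ABCC3, ABCC1 and ABCA13 lie higher in knockdown and ABCA5, ABCG2 and ABCC5 lower, with gaps wider than the spread within a group, whereas ABCC2 overlaps between the groups.

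Of the other pumps studied in drug resistance, ABCG2 and ABCB1 were lower in knockdown. ABCG2, the breast cancer resistance protein, which also exports urate, had log2 signals of 8.20, 8.26 and 8.22 in EIF3C knockdown, against 8.73, 8.79 and 8.69 in control. No arrays overlapped, and the distance between the groups was several times the spread within either. ABCG2 had a log2 fold change of -0.51 (SE 0.04, adjusted p = 7.29e-09), which left 70.2% of the control signal, and its further probe set was called lower too, at -0.50. At the size of 0.5 used above, ABCG2 among the falls and ABCA13 (0.56) among the rises lay just inside. The next fall outside was that of ABCC5 (-0.36), and the next rise outside was that of ABCC4 (0.24).

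ABCB1, which encodes P-glycoprotein, had log2 signals of 6.68, 6.86 and 6.79 in EIF3C knockdown, against 6.96, 6.93 and 6.98 in control. The groups did not overlap, but the highest knockdown array lay just below the lowest control array. The log2 fold change of the brightest probe set was -0.18 (SE 0.06, adjusted p = 0.0178), and the call was lost without knockdown replicate 1 (-0.13, adjusted p = 0.115). The dimmer probe sets of ABCB1 showed larger falls, by 0.42 and 0.65 where called and by 0.20 on a last one that was not called. On the mean of the 4 probe sets the log2 fold change was -0.36 (adjusted p = 9.21e-05). Of the 7 genes followed for drug resistance, 3 were called higher (ABCC1, ABCC3 and ABCC4), 3 lower (ABCB1, ABCC5 and ABCG2), and ABCC2 was not called, beside 66.5% called among all genes tested.

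**Figure D3:**
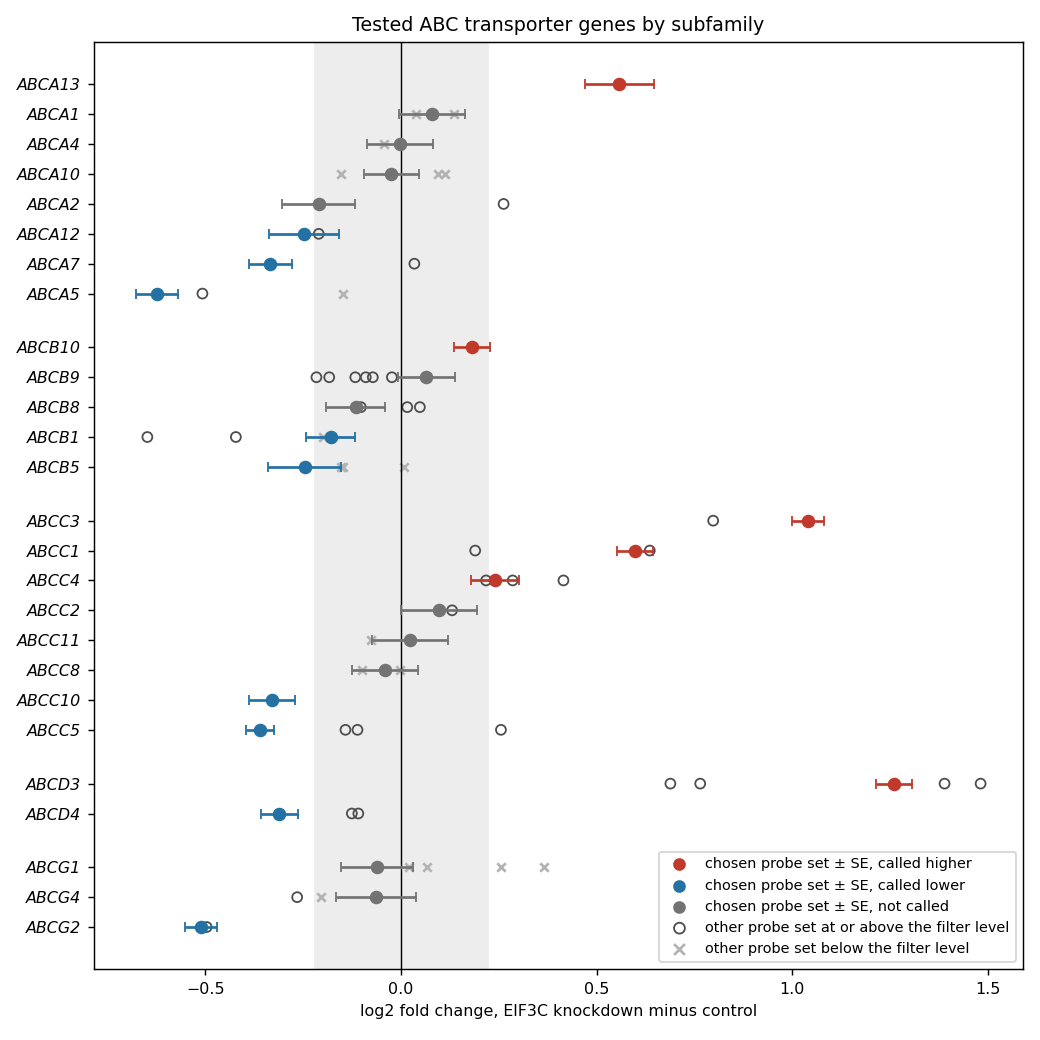
Log2 fold change, EIF3C knockdown minus control, on the x axis for the 26 tested ABC transporter genes, grouped by subfamily from ABCA at the top to ABCG. Filled points are the chosen probe sets with the SE of the limma fit, open circles are further probe sets with a mean at or above the filter level of 4.63, crosses are dimmer ones, and the grey band spans 0.22 to either side of 0, the widest knockdown-control gap seen on non-human array controls. All 5 probe sets of ABCD3 lie to the right of the band, and those of ABCC5 lie on both sides of 0.

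Of 8 tested lipid transporter genes of the ABCA subfamily, 1 was called higher and 3 lower, beside 32.4% and 34.1% of all genes tested, and 1 of the 3, ABCA12, was not a stable call. ABCA5, a lipid transporter of endosomes and lysosomes, had the largest fall of the tested transporter genes. Its log2 signal was 7.30, 7.35 and 7.29 in EIF3C knockdown, against 7.87, 7.91 and 8.03 in control, without overlap. ABCA5 had a log2 fold change of -0.62 (SE 0.05, adjusted p = 1.56e-08), which left 64.9% of the control signal, and 6.77% of all tested genes fell at least as far. A further probe set was called lower, at -0.51, and a last one, dim in both groups, was not called.

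ABCA13, among the longest of all ABC proteins, was the ABCA gene that rose. Its only probe set had log2 signals of 6.65, 6.54 and 6.46 in EIF3C knockdown, against 6.09, 6.12 and 5.77 in control. The groups were apart although each was spread more widely than those of ABCC3 or ABCG2 (log2 fold change 0.56, SE 0.09, adjusted p = 2.72e-05). ABCA7, a phospholipid transporter linked to Alzheimer disease risk, fell by 0.33 on its brightest probe set (SE 0.06, adjusted p = 4.45e-05). Its further probe set stood at 0.03 and was not called, and the log2 fold change of their mean was -0.15.

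ABCA12 loads lipids into the lamellar granules of keratinocytes and is the gene of harlequin ichthyosis. It was 4.72, 4.64 and 4.80 in EIF3C knockdown, against 5.03, 4.93 and 4.95 in control, near the filter level. The log2 fold change was -0.25 (SE 0.09, adjusted p = 0.0220). The call, though not the direction, was lost without knockdown replicate 1 (-0.25, adjusted p = 0.0561), knockdown replicate 2 (-0.21, adjusted p = 0.0864) or control replicate 1 (-0.22, adjusted p = 0.0873). The other tested ABCA genes were not called. They were the cholesterol exporter ABCA1 (log2 fold change 0.08), the brain lipid transporter ABCA2 (-0.21, adjusted p = 0.0569), the retinal transporter ABCA4 (-0.003) and ABCA10 (-0.03). ABCA2 had a further probe set called higher, at 0.26, and its chosen probe set passed as lower without knockdown replicate 1 (adjusted p = 0.0191) and without control replicate 2 (0.0405), and with the replicate number as a block (0.0306).

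ABCA5 lies on chromosome 17 in a run of 5 ABCA genes, ABCA8, ABCA9, ABCA6, ABCA10 and ABCA5, with no other protein-coding gene between them in GRCh38.p14. In that run ABCA5 was the only gene called. On its chosen probe set ABCA10 was at 6.20 in EIF3C knockdown and 6.23 in control, but its other 3 probe sets were dim in both groups. ABCA6, ABCA8 and ABCA9 were dim in both groups. On chromosome 7, ABCB1 neighbours ABCB4, the phospholipid exporter of bile, which was dim at 3.54 in knockdown and 3.50 in control.

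Mitochondrial and lysosomal genes of the ABCB subfamily changed little. ABCB10, a transporter of the mitochondrial inner membrane linked to haem synthesis, had log2 signals of 8.19, 8.24 and 8.11 in EIF3C knockdown, against 7.98, 8.02 and 7.99 in control. It rose by 0.18 (SE 0.05, adjusted p = 0.00202), less than the widest gap seen between the groups on the 85 non-human array controls, 0.22. The same holds for the fall of ABCB1 on its chosen probe set. Of the 26 tested transporter genes, 13 were called with a change beyond that gap. The share called and beyond it was 50.7% over all genes tested, so these calls did not set the family apart. ABCB8, also mitochondrial, was not called (-0.12, adjusted p = 0.193), although its groups did not overlap. The groups did not overlap for 16 of the 26 tested genes and for 70.3% of all genes tested. ABCB9, a lysosomal peptide transporter, was not called (0.06), and 6 further probe sets of it lay between -0.22 and -0.02. ABCB5, known from melanoma and limbal stem cells, was 4.66, 4.66 and 4.65 in EIF3C knockdown, against 4.78, 4.92 and 5.01 in control. The log2 fold change was -0.25 (adjusted p = 0.0267). The call was lost when any array but control replicate 1 was left out, with log2 fold changes that stayed between -0.25 and -0.19 (adjusted p from 0.0540 to 0.0816).

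The tested ABCG genes other than ABCG2, which are sterol exporters, were not called. ABCG1 was at 4.68 in EIF3C knockdown and 4.74 in control (log2 fold change -0.06, adjusted p = 0.577), and ABCG4 at 4.88 in knockdown and 4.95 in control (-0.06, adjusted p = 0.605). Both lay close to the filter level. A dimmer probe set of ABCG1 was called higher, at 0.37, and a probe set of ABCG4 was called lower, at -0.27. ABCG5 and ABCG8, neighbours on chromosome 2 that together export plant sterols and cholesterol in liver and gut, were dim in both groups.

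In all, 12 of the 39 genes were dim in both groups, that is, below 4.63 on the mean of each, and no fold is drawn from them. They were ABCA3, ABCA6, ABCA8, ABCA9, ABCB4, the bile salt export pump gene ABCB11, ABCC9, ABCC12, ABCC13, ABCD2, ABCG5 and ABCG8. The pseudogene ABCC6P1 was also left out of the test by its mean over all arrays, but its control mean lay above the level. Its log2 signal was 3.84, 4.01 and 3.89 in EIF3C knockdown, against 4.57, 4.76 and 4.71 in control. Without the filter ABCC6P1 was called lower (adjusted p = 1.42e-06), as was the surfactant lipid transporter gene ABCA3 (adjusted p = 0.0130). A pseudogene can share signal with its near-identical parent gene, so the source of the ABCC6P1 signal is uncertain. Reading a call from further probe sets, 11 of the 15 called genes had another probe set at or above the filter level, and for 9 of these all such probe sets moved in the direction of the chosen one. In 8 of the 11 at least 1 was itself called in that direction. These counts were not taken over all called genes, so they do not set the family apart.

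ABC proteins whose symbols fall outside the selection included TAP1 and TAP2, which carry peptides into the endoplasmic reticulum, the chloride channel CFTR, and ABCE1 and the ABCF proteins, which act on ribosomes and carry nothing across membranes. Of 6 tested, 4 were called higher and 1 lower, beside 32.4% and 34.1% of all genes tested. TAP1 rose to 9.37 ± 0.05 in EIF3C knockdown, against 8.61 ± 0.02 in control (mean log2 signal ± SD, n = 3 each, log2 fold change 0.76, adjusted p = 8.77e-12), and TAP2 stood at 9.40 in each group. ABCF2 rose by 0.57, the ribosome recycling factor ABCE1 by 0.50 and ABCF1 by 0.13, and ABCF3 fell by 0.11. CFTR was dim in both groups, at 3.07 in knockdown and 2.99 in control.

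Genes that work beside the transporters were counted from lists, against the 32.4% of all genes called higher and the 34.1% called lower. Of 17 tested peroxisomal genes, 5 rose and 6 fell (median log2 fold change -0.02). PEX7, the import receptor for a class of matrix enzymes, rose by 1.15 and the very long-chain acyl-CoA synthetase SLC27A2 by 0.75, and PEX5, the other import receptor, fell by 1.06 and the acyl carnitine enzyme CROT by 0.69. PEX19, which brings membrane proteins such as PMP70 to peroxisomes, was not called (-0.02). Of 11 genes that act with lysosomal transporters and cobalamin, 4 rose and 5 fell (median -0.02). LMBRD1, the partner of ABCD4, fell by 0.52, like ABCD4 itself, while MMACHC, which receives cobalamin in the cytosol, rose by 0.64, and MMADHC fell by 0.44 and the lysosomal membrane gene LAMP2 rose by 0.39.

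Sterol efflux genes and those of its nuclear receptor LXR fell in 11 of 15 cases and rose in 1 (median -0.29). The LXR-alpha gene NR1H3 was at 6.51 ± 0.05 in EIF3C knockdown and 7.29 ± 0.04 in control (log2 fold change -0.78, adjusted p = 2.46e-09), SMPDL3A fell by 0.71, and the oxysterol-binding protein gene OSBP rose by 0.11. ABCA1 and ABCG1, the sterol exporters regulated by LXR, were not called, as given above. Genes of glutathione and conjugation, some of which make substrates of the ABCC pumps, fell in 13 of 20 cases and rose in 3 (median -0.12). GSTK1 fell by 0.85 and CHAC1, which degrades glutathione, by 0.86, and GPX1 rose by 0.48 and GCLM, the modifier subunit of glutathione synthesis, by 0.22.

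Of 24 genes of mitochondrial haem and iron-sulfur synthesis and of haem transport and breakdown, 14 fell and 7 rose (median -0.28). The cysteine desulfurase NFS1 fell by 1.16 and the haem-degrading enzyme HMOX1 by 0.98, and HMOX2 and the glycine carrier SLC25A38 each rose by 0.53. Peptide loading genes, which work with TAP, fell in 10 of 13 cases and rose in 1 (median -0.31). Tapasin (TAPBP) fell by 0.93 and ERAP2 by 0.78, while the immunoproteasome subunit gene PSMB8 rose by 0.98. Organic anion, cation and nucleoside transporters of the SLC families rose in 6 of 12 cases and fell in 2 (median 0.09). SLCO4A1 rose by 1.02 and SLC22A4 by 0.67, and the carnitine transporter SLC22A5 fell by 0.39 and SLCO5A1 by 0.21.

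Of 16 genes for transcriptional and other regulators of transporter genes, 7 rose and 8 fell (median -0.11). EGR1 rose by 1.19 and MYC by 1.02, and FOXO1 fell by 0.70 and PPARA by 0.66. KCNJ11, the pore subunit that pairs with ABCC8, fell by 0.23 (adjusted p = 0.00969), and KCNJ8, the other pore subunit gene, was dim in both groups.

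**Figure D4:**
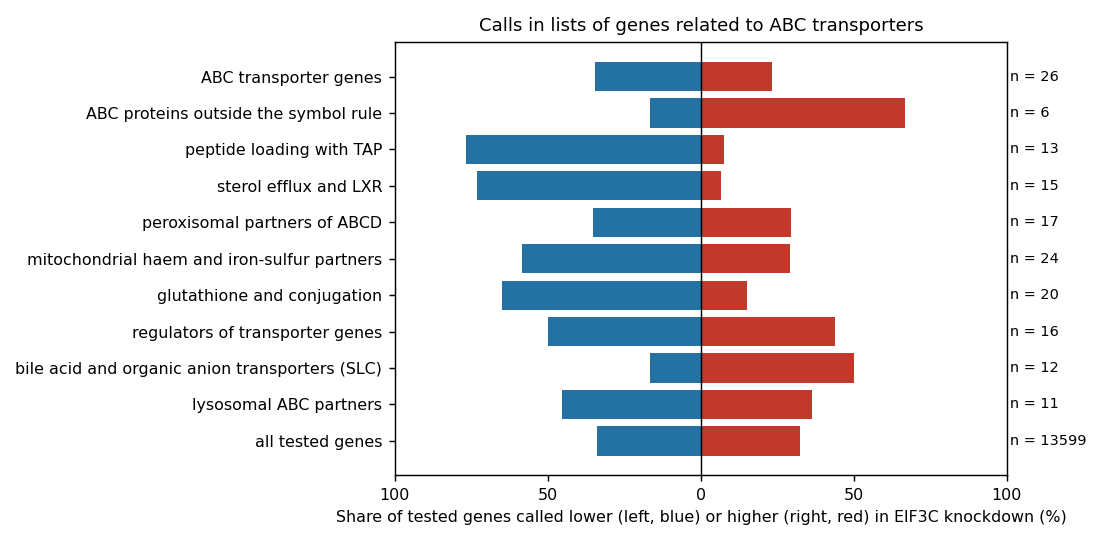
Share of tested genes called lower (blue, left) or higher (red, right) in EIF3C knockdown, in percent on the x axis, for the 26 ABC transporter genes at the top, lists of related genes, and all 13599 tested genes at the bottom. The number of tested genes stands at the right. The transporter genes lie near the shares of all genes, 23.1% higher and 34.6% lower, the sterol efflux, peptide loading, glutathione and haem lists have clearly longer blue than red bars, and the SLC list and the ABC proteins outside the selection have longer red than blue bars.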

How the data were processed

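The authors deposited log2 signals, 1 column per array and 49395 probe sets, and MAS5 is named as software per the submitters' processing notes, with no version. That the scale is log2 was taken from the range, 1.95 to 14.1. Background correction and summarisation were not given in the labels. As array medians nearly matched, no further normalization was applied. A change common to all genes cannot be seen. Detection calls were not used, and precision is limited by having 6 arrays.

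Gene names came from the platform annotation. The 44988 probe sets with 1 symbol gave 18132 genes, of which the lowest 25% by mean were left out. All 39 transporter genes matched RefSeq by Entrez ID, and 29 had a promoter window. Knockdown was compared with control in limma 3.58.1 (R 4.3.3; lmFit, eBayes with trend, group as the only term), with Benjamini-Hochberg adjustment over all genes tested at 0.05. Further probe sets and EIF3C came from the same fit over 49293 human probe sets without a filter. All adjusted p-values come from limma. The fit was also run on simulated data in which few genes changed, unlike here, so that run cannot vouch for these calls.

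Values in each array are given for members called with a change of at least 0.5 and for 7 pumps followed in drug resistance. They are also given for members with opposed probe sets. Others were added, namely ABCA12 and ABCB5, whose calls were unstable, ABCD4, ABCC10 and ABCB10, whose calls were stable, and ABCC6P1. For each list, up to 2 rises and 2 falls are named. Members and lists were chosen with earlier results of these data known. Alternatives were other filters, quantile normalization, median centring, averaged or separate probe sets, no trend, robust eBayes, weighted arrays, a block for the replicate number, and leaving out single arrays.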

Additional observations from a re-analysis of the deposited data

How the results depend on the processing

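Over 16 alternatives, 11 of the 15 called transporter genes kept direction and call wherever they were tested. The exceptions were ABCA12, ABCB1 and ABCB5, whose calls were lost with some arrays left out, and ABCC5, lost with averaged probe sets. None reversed, and ABCA2 and ABCC2 gained a call under some alternatives. Leaving out each array gave 6 to 7 higher and 7 to 9 lower transporter genes, 8459 to 8890 called genes in all, and a median of the transporter genes from -0.088 to -0.011. That median was -0.25 with a 50% filter, where the number of genes falls, and -0.017 with quantile normalization. With the replicate number as a block, 6 transporter genes were higher and 10 lower, 9307 genes were called in all, and the change of EIF3C was -2.18. Deviations of same-numbered samples correlated at 0.08, 0.13 and 0.23, and those of differently numbered samples at -0.18 to 0.10. Control replicate 1 correlated best with knockdown replicate 2 (0.10), and control replicates 2 and 3 with their own number. The labels name no pairs and the main fit took none, and whether the numbers mark pairs was not settled. ABCA12, ABCB5, ABCG1 and ABCG4 lay close to the filter level, and how far they stood above background was not measured.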

Other observations

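Probe sets shared with another gene were left out above. Of 5 that carry both ABCB6, a transporter of porphyrins, and its neighbour ATG9A, an autophagy protein, 2 were called higher in EIF3C knockdown, by 0.70 and 0.28 on the log2 scale, and 3 lower, at -0.41, -0.48 and -0.42 (limma, adjusted p at most 0.00529). The brightest of the 2 higher ones was at 8.38 ± 0.05 in knockdown and 7.69 ± 0.09 in control (SD, n = 3 each). A probe set shared by ABCB8 and ASIC3 was called lower, at 6.43 ± 0.13 in knockdown and 7.25 ± 0.08 in control (log2 fold change -0.82, adjusted p = 1.81e-07), whereas the 4 probe sets of ABCB8 alone lay between -0.12 and 0.05 and were not called. Of 2 probe sets shared by the pseudogene ABCA11P and ZNF721, 1 was called lower, at -0.38 (adjusted p = 0.00394), and the other was not called (adjusted p = 0.999).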
